A study of Mus musculus with 10 samples.

Results

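Fdft1 and Lss encode squalene synthase and lanosterol synthase, a pair of enzymes in the branch of the mevalonate pathway that leads to cholesterol. They were followed here in M-1 cells, an established line from the mouse cortical collecting duct, the tubule of the kidney that gathers fluid from the nephrons of the cortex. The genes were taken from a probe annotation as every clone whose single symbol is Fdft1 or Lss, which gave 2 of the 7142 gene symbols on the array. Each symbol has 1 cDNA clone, and each clone was printed as 2 neighbouring spots: clone 6974 for Fdft1 (spots 13947 and 13948) and clone 721 for Lss (spots 1441 and 1442). Both genes were chosen with their dexamethasone ratios already known. Those ratios are therefore given as a description, with the standard error of each difference and with no p-value or call, while ratios between control channels, which played no part in the choice, are tested.

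The cells, at passage 34 to 36, had been kept in steroid-free medium and were then given 100 nM dexamethasone, a synthetic glucocorticoid, for 3 h, or steroid-free medium for the same time. Each array was read in both colours. On 3 arrays Cy5 held RNA titled treated and Cy3 held RNA titled control (dexamethasone arrays 1, 2 and 3). In 2 further pairs both colours were titled control (control pairs 1 and 2). The groups therefore comprise 5 control Cy3, 2 control Cy5 and 3 dexamethasone Cy5 channels. Groups follow the titles, although the treatment text of 5 of the 7 channels titled control mentions dexamethasone, and a direction holds only if the titles are right. No array had its dyes swapped, and control pairs and dexamethasone arrays are separate hybridisations, so treatment, dye and set of arrays cannot be told apart. Whether the replicates are separate cultures is not stated. A p-value then measures the spread between these channels, pooled over clones, which may be technical. In RNA of a whole culture, more transcript per cell and more cells that carry it cannot be told apart.

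Squalene synthase joins a pair of farnesyl diphosphate molecules head to head into squalene, the first step committed to sterols, since farnesyl diphosphate also feeds protein prenylation, dolichol and ubiquinone. Squalene epoxidase, the product of Sqle, then oxidises squalene, and lanosterol synthase folds the resulting oxidosqualene into lanosterol, the first sterol ring system of the pathway. Genes of the pathway are known to be switched on together by SREBP transcription factors when membrane sterol is low. SREBPs bind sterol regulatory elements in promoters, usually beside sites for NF-Y (the CCAAT box) and Sp1 (the GC box).

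The RefSeq promoter table held a sequence for 1 of the 2 genes, Lss. It is shown because SREBP control of sterol genes is read in promoter letters of this kind. The window runs from 250 bases before to 50 after the gene's start, at chr10:76531355-76531654 on the plus strand of GRCm38.p6, and capitals mark the motif matches found.

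Lss: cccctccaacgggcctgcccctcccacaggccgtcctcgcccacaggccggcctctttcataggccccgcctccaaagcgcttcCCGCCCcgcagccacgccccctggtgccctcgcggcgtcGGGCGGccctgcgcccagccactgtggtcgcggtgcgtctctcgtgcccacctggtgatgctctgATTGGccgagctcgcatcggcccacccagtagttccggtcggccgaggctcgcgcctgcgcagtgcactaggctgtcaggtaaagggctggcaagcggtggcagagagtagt

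Letters CCAAT, searched on both strands, matched once in this window, as ATTGG at bases 189 to 193. They occur in 37.4% of the 32851 promoters of the same length. The letters GGGCGG matched 2 times, as CCGCCC at bases 85 to 90 and as GGGCGG at bases 124 to 129, and occur in 35.7% of promoters. A core of the sterol regulatory element, TCACNCCAC, had 0 matches (1.24% of promoters hold it). The letters AGAACA, part of the glucocorticoid receptor's site, also had 0 matches (19% hold it), as had the E box CACGTG (7.15% hold it). None of these matches overlapped. A match is a description of the letters, not of binding, and other windows of the gene were not searched. G and C made up 71% of the window, above 91.8% of promoters.

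The deposited table holds 31200 spots, and how many carry a value differs sharply between arrays. The control pairs list 99.4% and 99.2% of spots, while the dexamethasone arrays list 12.1%, 12.8% and 12.8%. On the dexamethasone arrays a strip with almost no spot runs through the middle of the uncentred log2 ratios at each intensity (the empty band). Its smoothed edges enclose 1.91%, 2.08% and 2.37% of the listed spots. Listed spots are thus nearly all ones with outlying ratios, and why the other spots have no value was not examined. Ratios were centred on the middle of that band on the dexamethasone arrays and by lowess on intensity in the control pairs. Keratin and Epcam clones, 9 in all and markers of epithelial cells, lay between the 95.6th and 99.2th percentile of brightness in the control pairs. The other 5 clones of the collecting duct list were dimmer: those of Cdh1, an epithelial cadherin, lay at the 20.0th and 4.95th percentile, that of Slc4a1 at the 36.6th and those of Tfcp2l1 at the 53.5th and 88.5th. Clones with a single symbol were 0 for Aqp2, Avpr2, Hsd11b2 and the sodium channel subunits Scnn1a, Scnn1b and Scnn1g, so the defining collecting duct markers were not checked. Of 84 spots of the collecting duct list on the dexamethasone arrays, 6 were listed higher (7.14%, against 6.36% over all clones) and 0 lower (against 6.22%). The counts were 3 and 3 of 66 for fibroblast, 0 and 1 of 6 for leukocyte, 0 and 0 of 12 for endothelial and 1 and 1 of 12 for proximal tubule markers. The part of cell makeup in the results was not tested.

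On the dexamethasone arrays Fdft1 was brighter in Cy5 than in Cy3 at each of its 4 listed spots, and the uncentred Cy5/Cy3 fold ran from 1.37 to 1.58. In the control pairs the same spots ran from 0.557 to 1.30, so the sets did not overlap, though they lay close together at their nearest values. Ratios near the middle are rarely listed on the dexamethasone arrays. Of clones valued on at least 2 of them, in either direction, 28.4% had every dexamethasone ratio above both control ratios. That share is of centred clone means, not of uncentred spot folds. On array 1, spot 13947 read 349 in control Cy3 and 551 in dexamethasone Cy5. On array 2, it read 579 and 794 in the same order, and its neighbour 13948 read 515 and 793. On array 3, spot 13948 read 1433 and 2091. Dexamethasone RNA thus gave the brighter channel on all 3 arrays, while 2 of the 6 possible spot readings, 13948 on array 1 and 13947 on array 3, are not listed.

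In control pair 1, spot 13947 read 408 in Cy3 and 358 in Cy5, and spot 13948 read 503 and 280. In control pair 2, spot 13947 read 1844 and 1489, and spot 13948 read 1111 and 1439. Cy3 was the brighter channel at 3 of these 4 readings. Brightness of the Fdft1 spots varied with the array, from the 25.6th percentile of the channel (spot 13947, Cy3, pair 1) to the 78.9th (same spot and dye, pair 2). Brightness orders spots and not transcripts, because clones differ in length and labelling.

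**Figure D1:**
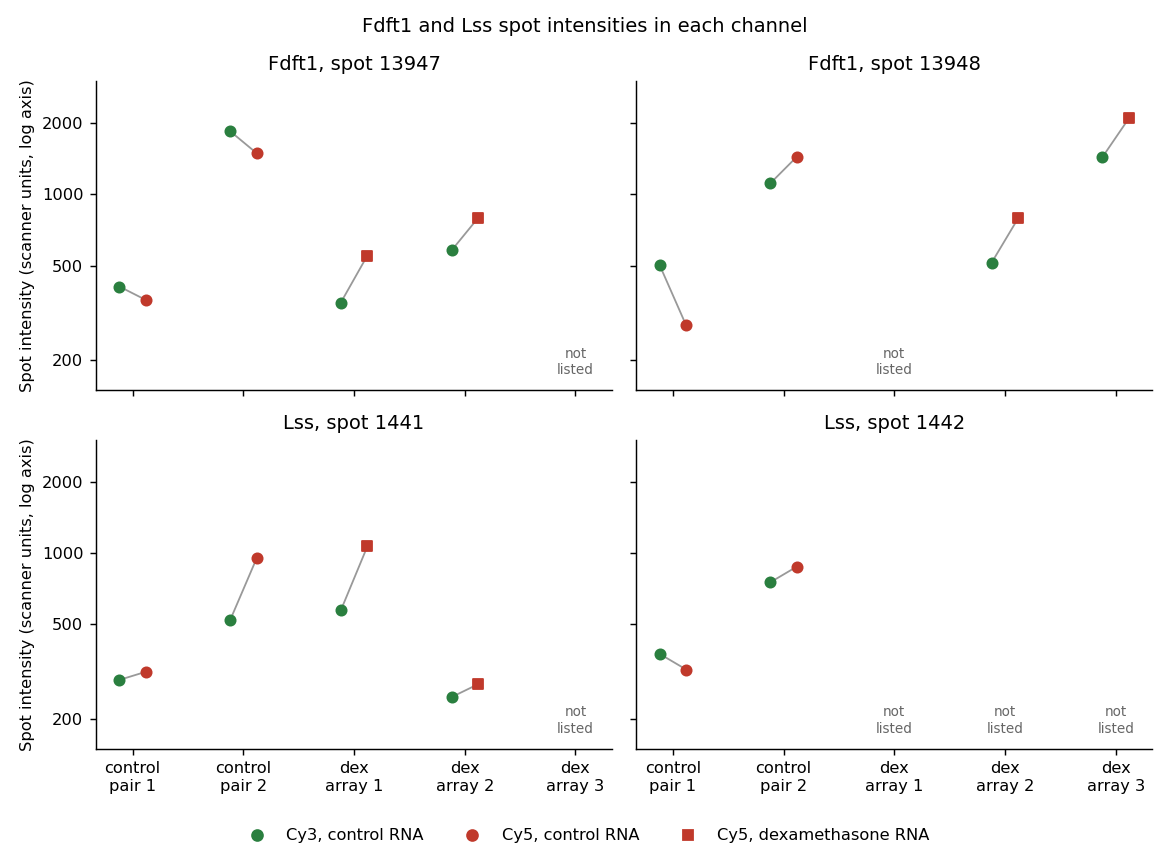
Intensity of each Fdft1 and Lss spot (log axis, scanner units) in Cy3 (green) and Cy5 (red) for every pair, with a line joining the channels of a pair. Squares mark dexamethasone RNA, and readings without a value are marked as not listed. All 4 Fdft1 and both Lss readings on dexamethasone arrays rise from Cy3 to Cy5, while in the control pairs Fdft1 rises once and Lss 3 times.

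Centred on the band, the Fdft1 clone had log2 ratios of 0.73, 0.68 and 0.54 on dexamethasone arrays 1, 2 and 3, a mean of 0.65 ± 0.10 (SD, n = 3). In control pairs 1 and 2 its centred ratios were 0.07 and -0.01, a mean of 0.03 (SD 0.06, n = 2). Each of the 3 dexamethasone values exceeded both control values, and the difference was 0.62 with a standard error of 0.19 in limma. The 28.4% of clones with such separation are 606 of 2131 valued on at least 2 dexamethasone arrays and in both control pairs. The 2131 include clones listed lower or in both directions. Of all 15600 clones, 657 were listed higher on at least 2 arrays and lower on none. Separation may thus be usual among clones listed like Fdft1. The listing favours such separation, because a value inside the band is rarely shown, so the dexamethasone mean may be too large in size and its SD too small.

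How far each Fdft1 reading cleared the band was small against the ratio itself. On array 1, spot 13947 had an uncentred log2 ratio of 0.66 where the upper edge was at 0.44, a margin of 0.22. On array 2 the margin was 0.06 for spot 13947 and 0.25 for spot 13948, and on array 3 it was 0.15 for spot 13948. Of the 150 higher-listed spots nearest in intensity, 49 had a larger centred ratio than spot 13947 on array 1, 125 on array 2, and for spot 13948 there were 44 on array 2 and 55 on array 3. Spot 13947 on array 2 thus sat near the edge of what is listed. Among all higher-listed spots of the array, whatever their intensity, a larger centred ratio was held by 41.5% for spot 13947 on array 1, by 89.6% and 31.5% for spots 13947 and 13948 on array 2, and by 58.4% for spot 13948 on array 3.

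**Figure D2:**
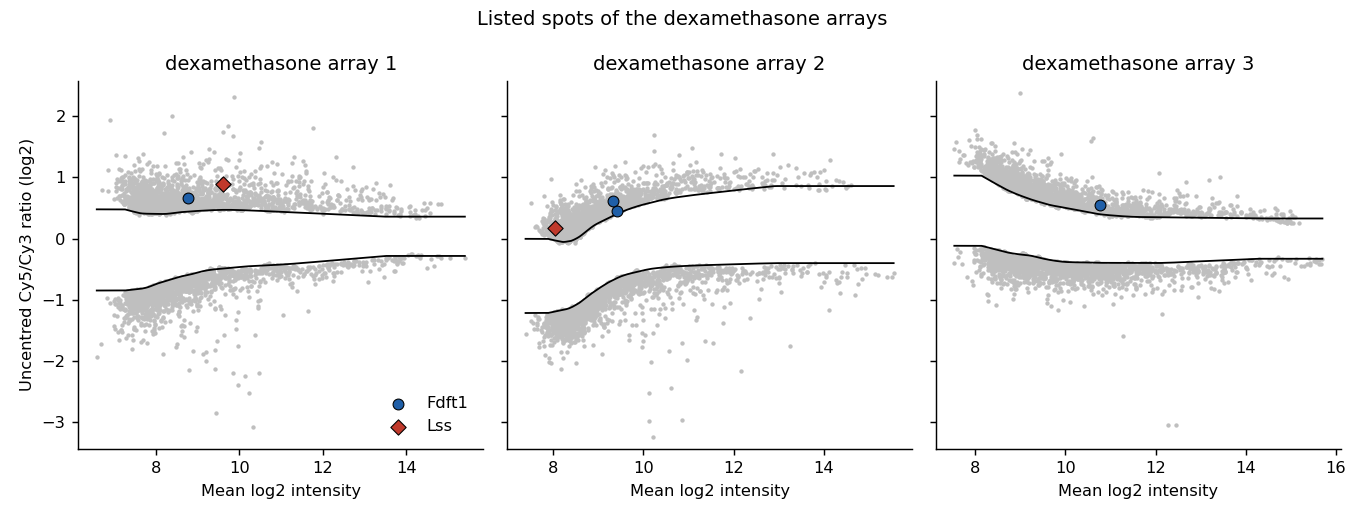
Uncentred log2 Cy5/Cy3 ratio against mean log2 intensity for every listed spot (grey) of the 3 dexamethasone arrays, with the edges of the empty band as lines. The 4 Fdft1 readings (circles) and 2 Lss readings (diamonds) lie above the upper edge, by 0.06 to 0.43.

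Either channel can set a ratio, so each was scaled to the median of the spots listed on that array and set against the same dye in the control pairs. For Fdft1 the dexamethasone Cy5 channel exceeded the control Cy5 mean at all 4 readings, by 0.30 on array 1 (spot 13947), 0.64 and 0.84 on array 2 (spots 13947 and 13948) and 1.13 on array 3 (spot 13948), on the log2 scale. Over the same readings the control Cy3 channel changed by -0.57, -0.35, -0.30 and 0.64. The scaled Cy5 values exceeded those of both control pairs at each of the 4 readings. Readings are listed for outlying ratios and Fdft1 was chosen on its ratio, which favours a high Cy5. These values therefore cannot tell which channel set the ratio. The Cy3 values of spot 13947, -0.13 on array 1 and 0.09 on array 2, lay between those of control pair 1 (-0.23 and -0.24 on the same scales) and control pair 2 (1.10 and 1.12). At spot 13948 Cy3 was below both control pairs on array 2 and above both on array 3. With the Cy5 channels alone, dexamethasone against control, the Fdft1 difference was 0.64 and the Lss difference 0.47.

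Lss was listed less often than Fdft1. Spot 1441 has values on arrays 1 and 2, spot 1442 on none of the 3, so 2 of 6 possible readings are given. On array 1, spot 1441 read 573 in control Cy3 and 1067 in dexamethasone Cy5. On array 2, it read 247 and 280. The uncentred folds of 1.86 and 1.13 differ widely, although the centred log2 ratios, 0.91 and 0.79, do not, since on array 2 the whole band lay below 0 at that intensity (edges at -1.19 and -0.03). The centred mean was 0.85 ± 0.08 (SD, n = 2). Spot 1441 cleared the upper edge by 0.43 on array 1 and by 0.21 on array 2, and 19 and 48 of the 150 higher-listed spots nearest in intensity had a larger centred ratio. The larger of these margins exceeds each of those of Fdft1.

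In the control pairs Lss reached similar values. In control pair 1, spot 1441 read 292 in Cy3 and 316 in Cy5, and spot 1442 read 376 and 323. In control pair 2, the readings were 521 and 951 for spot 1441 and 753 and 877 for spot 1442. The uncentred control folds, 0.859 to 1.83, overlapped those of the dexamethasone arrays. Centred, spot 1441 stood at 0.77 in control pair 1, just under its 0.79 on dexamethasone array 2, and at 0.24 in control pair 2. Spot 1442 stood at 0.40 and -0.24.

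The Lss clone averaged 0.58 in control pair 1 and 0.00 in control pair 2, a mean of 0.29 (SD 0.41, n = 2), and its difference from the dexamethasone arrays was 0.56 with a standard error of 0.27 in limma. Read at spot 1441 alone, the spot that is listed on the dexamethasone arrays, the control mean was 0.50 and the difference fell to 0.34. Without control pair 1 the Lss difference was 0.85, and without control pair 2 it was 0.27, so a single control pair moves it more than 1.5 times in either direction. The dexamethasone Cy5 channel exceeded control Cy5 by 1.67 on array 1 and fell by 0.45 on array 2 (log2), and the control Cy3 channel moved with it, by 1.30 and -0.43. Lss brightness thus differed between arrays in both channels by more than the ratio did.

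Lss spots were also dim. In Cy3 of control pair 1 they lay at the 1.82th and 16.0th percentile of the channel (292 and 376, against a channel median of 488), and in Cy3 of control pair 2 at the 21.0th and 42.2th. In Cy5 they ranged from the 26.5th to the 48.6th percentile over both pairs. The part of low signal in the Lss ratios was not tested. Over all clones Lss lay at the 25.1th percentile of mean brightness and Fdft1 at the 64.4th.

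**Figure D3:**
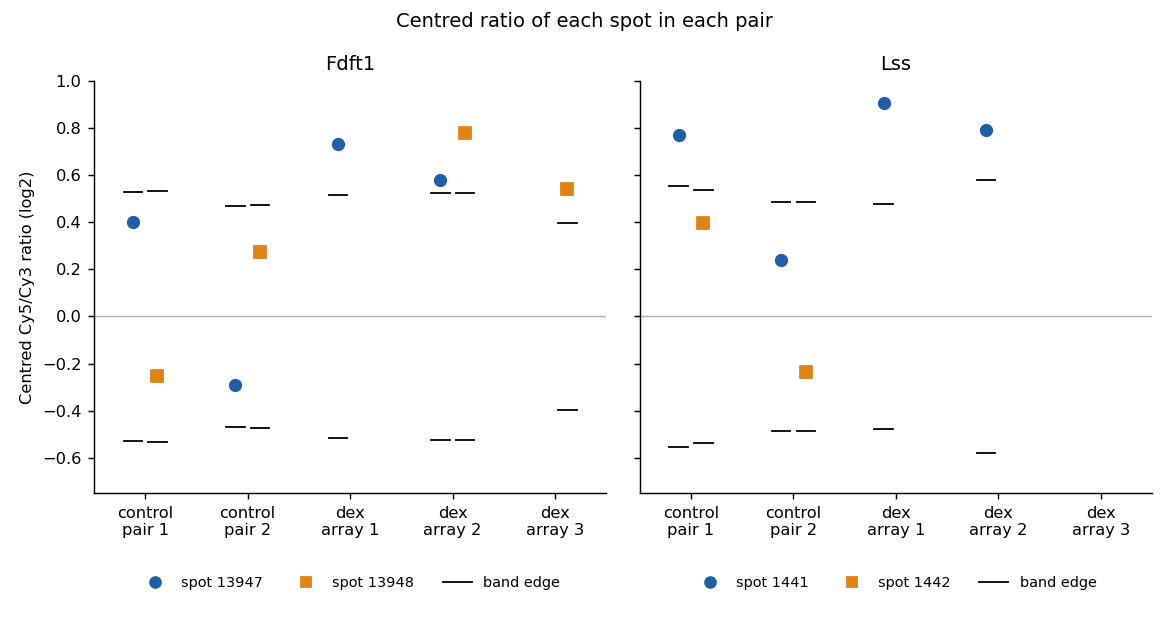
Centred log2 Cy5/Cy3 ratio of each spot of Fdft1 and Lss in each pair, with short lines at the edges of the empty band for that spot's intensity (in control pairs, the mean distance from middle to edge over the 3 dexamethasone arrays). Control readings lie inside the lines except Lss spot 1441 in control pair 1, at 0.77 against an edge of 0.55. Lss has no listed spot on array 3.

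Had the control pairs been listed by the band of the dexamethasone arrays, 0 of the 4 Fdft1 readings and 1 of the 4 Lss readings would have appeared. In control pair 1, 11.4% of all spots lie beyond that band and 5.79% above it, and in control pair 2, 17.7% and 8.19%. The Lss reading concerned, spot 1441 in control pair 1, was above 98.9% of the ratios of that pair.

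The control pairs also show what the colours give by themselves. Tested against 0 with limma over 15561 clones, the Cy5/Cy3 ratio of Fdft1 was 0.03 with a standard error of 0.19 (adjusted p = 0.981), positive in 1 of 2 pairs. That of Lss was 0.29 with the same standard error (adjusted p = 0.722), positive in both pairs. Limma took this error from a variance shared by all clones. The SD between the pairs was 0.06 for Fdft1 and 0.41 for Lss, so neither p-value carries the gene's own spread. Neither gene passed, which with 2 pairs does not show that a dye effect is absent. With median centring of the control pairs the Fdft1 ratio turned to -0.17, and with no centring to -0.24. Over all clones limma called 0.0321% higher in Cy5 and 0.289% lower. Between the pairs the Lss ratio differed by 0.58, more than for all but 11.9% of clones, whereas Fdft1 differed by 0.08, with 81.9% of clones differing more.

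Duplicate spots measure the error within an array. Fdft1 spots differed by 0.65 in control pair 1 and by 0.56 in control pair 2, in opposite directions, while the median clone differed by 0.25 in each pair. A wider gap was found for 10.8% and 15% of clones. The close agreement of the Fdft1 clone between the control pairs, 0.07 and -0.01, is therefore a mean over spots that disagreed by about as much as the clone's difference of 0.62 under dexamethasone. For Lss the spots differed by 0.37 and 0.47, with 32.7% and 22.0% of clones wider. On array 2, where both Fdft1 spots are listed, they differed by 0.20. The median of the 464 clones with both spots listed there was 0.15, and 41.8% differed more than Fdft1. Only listed spots enter, so this is not comparable with the control pairs.

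**Figure D4:**
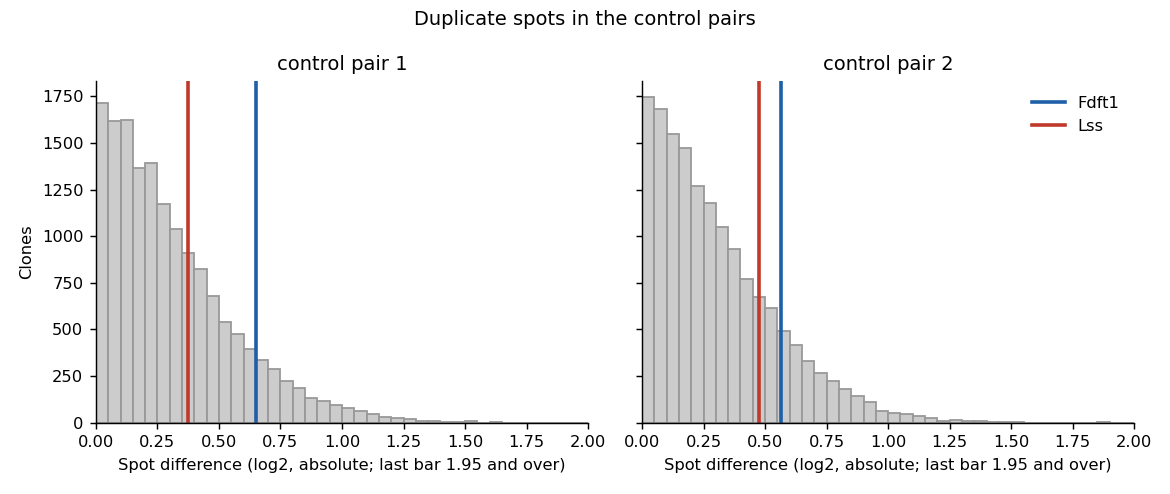
Histograms of the absolute log2 difference between the centred ratios of the 2 spots of each clone in control pairs 1 and 2, with lines for Fdft1 and Lss. Fdft1 lies at 0.65 and 0.56 and Lss at 0.37 and 0.47, all above the median clone at 0.25.

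Across all clones the pattern of Fdft1, listed higher on all 3 dexamethasone arrays and lower on none, was met by 53 of 15600 clones (0.34%), and the mirrored pattern by 0.359%. Lss, listed higher on 2 arrays and lower on none, belongs with 4.21% of clones. With 4 of its 6 spots listed higher and 0 lower, Fdft1 belongs with 0.333%. Any listing was given to 51.8% of clones and listing on 2 or more arrays to 13.7%, while 24.2% had more spots higher than lower and 23.2% more lower than higher. These shares use the contrast by which the genes were chosen, and nothing is read from them. In the limma fit of dexamethasone arrays against control pairs over 8056 clones, 0% were called higher and 0.0124% lower at an adjusted p under 0.05. These shares are given as background, and no call is read for Fdft1 or Lss. At an unadjusted p under 0.05 limma had 1328 clones higher and 1282 lower, in a fit whose clones were listed for large ratios. With all 10 channels fitted with no replicate block limma called 0 higher and 0 lower, with 46 and 35 at an unadjusted p under 0.05.

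Other enzymes of cholesterol synthesis did not follow one direction. Of 20 further enzymes in a list chosen with earlier results of these data known, 9 were measured, by 12 clones. Spots were listed higher for 2 of the clones, lower for 4, and not at all for 6. By spot count that is 3 higher and 5 lower of 72, or 4.17% and 6.94%, against 6.36% and 6.22% over all clones. The median difference of the 6 clones in the fit was -0.61, against 0.06 over all clones fitted. Only listed clones enter the fit, and listed ratios are nearly all outlying. This median therefore restates the 4 lower and 2 higher listings and leaves out the 6 unlisted clones. Limma called 0 of the 6 fitted clones higher and 0 lower, against 0% and 0.0124% over all clones fitted.

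Enzymes upstream of squalene gave mixed listings. Mvd, which makes isopentenyl diphosphate, was listed once, at 0.56 (centred log2 ratio, array 1) against 0.05 in the control pairs. Ggps1, which elongates farnesyl diphosphate to the geranylgeranyl form used in prenylation, was listed lower at both of its clones, at -0.78 on array 1 (clone 11944) and -0.65 on array 2 (clone 12028), against 0.01 and 0.33. Over all clones 23.2% had more spots lower than higher. Hmgcs1, the synthase that supplies HMG-CoA, and Idi1, the isopentenyl isomerase, were listed on 0 arrays.

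Sqle, whose enzyme acts between Fdft1 and Lss, was listed on 0 arrays although its spots were bright, at the 96.2th percentile of clones in the control pairs. Its control ratios were 0.10 and -0.10. Downstream of lanosterol, Lbr, a sterol reductase and lamin receptor, was listed at 1 of 2 clones, at 0.72 on array 1 (clone 14707) against 0.07. Msmo1, the methylsterol oxidase, was listed at 1 of 2 clones, at -0.75 on array 3 (clone 11213) against 0.17. Dhcr7, which performs the last reduction to cholesterol, stood at -0.55 on array 3 against -0.11, and Nsdhl, a sterol dehydrogenase, was listed on 0 arrays. None of the 12 clones was listed on more than 1 array. Over all clones only 13.7% were listed on 2 or more, so this is not read as a trait of these enzymes.

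**Figure D5:**
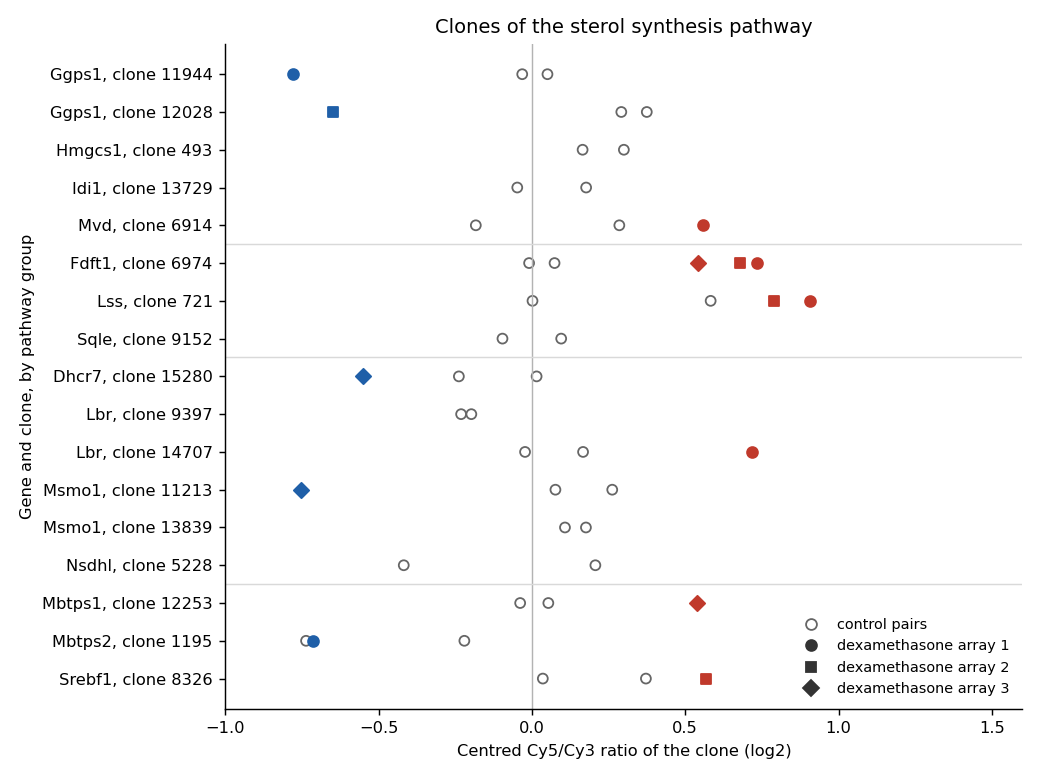
Centred log2 Cy5/Cy3 ratio of every measured clone of the sterol synthesis enzymes and their regulators, grouped by step, with open circles for the 2 control pairs and filled symbols for each dexamethasone array on which the clone is listed (red above 0, blue below). Fdft1 shows 3 filled symbols and Lss 2, and every other clone shows 1 or none. Over all clones of the array, 13.7% were listed on 2 or more dexamethasone arrays.

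Of the 7 regulators in the list, 3 were measured, and each was listed once. Srebf2, Scap, Insig1 and Insig2 had no clone with a single symbol, so the regulators were covered only in part. Srebf1, which encodes SREBP-1, stood at 0.57 on array 2 against 0.20 in the control pairs. Mbtps1, a protease that releases SREBPs, stood at 0.54 on array 3 against 0.01. Mbtps2, the other protease, stood at -0.71 on array 1 against -0.48. Of the genes of sterol uptake and transport, Npc2, a lysosomal cholesterol carrier, was listed lower at 2 of its 3 clones, at -0.77 on array 2 (clone 2178) and -0.70 on array 1 (clone 5092), against 0.15 and -0.57. Over that group, with 3 of its 10 genes measured, 0 spots were higher and 3 lower of 36 (8.33%). Over all clones 6.36% of spots were higher and 6.22% lower, and 23.2% of clones had more spots lower than higher.

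The fatty acid branch, which SREBPs also govern, had 5 of the 10 genes in its list measured. It had 8 spots higher and 3 lower of 78, or 10.3% and 3.85%, against 6.36% and 6.22% over all clones. Elovl6, a fatty acid elongase, was listed higher at 4 of its 5 clones, once each, from 0.48 on array 3 (clone 5598) to 0.93 on array 1 (clone 2747). Each of these listings was 1 spot, and none of the 4 clones was listed on a second array. Over all clones 24.2% had more spots higher than lower. Among the Elovl6 clones listed, 2747 and 8875 were dim, at the 11.7th and 2.29th percentile of brightness. Clones 1338 and 5598 lay at the 41.1th and 39.2th. The elongase clone 1338 stood at 0.82 on array 2 but at -0.50 in the control pairs. Me1, the malic enzyme that supplies NADPH, was split, with 2 spots higher and 2 lower over 4 clones. Its clone 10447 stood at -0.57 on array 2 and at 0.79 on array 3. Fasn was listed lower at clone 15220, at -0.58 on array 2, and its clone 1645 was not listed. Scd2 was listed higher, at 0.70 on array 1, and Fads1 was not listed. Limma called 0 clones of these lists in either direction. Over all 8056 clones fitted it called 0 higher and 1 lower, so nothing is read from that count.

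The 5 clones whose centred ratios were most like those of Fdft1 over all 5 pairs, among 128 candidates with a single symbol, were those of Strn, Rce1, Ddx19b, Sars and Jmjd6. Their root mean square difference from Fdft1 ran from 0.07 for Strn to 0.11 for Jmjd6, against a median of 0.78. Strn encodes striatin, a scaffold protein, and Rce1 the protease that trims prenylated proteins. For Lss, over the 4 pairs in which it is valued and 501 candidates, they were Kdm2b, Hspa8, Nt5m, Mthfd2 and Bap1, from 0.13 for Kdm2b to 0.18 for Bap1, against a median of 0.84. Candidates were taken whatever their direction, so clones listed lower or in both directions widen both medians. Clones listed higher would look close by that measure. Hspa8 encodes a constitutive chaperone and Mthfd2 a mitochondrial folate enzyme. The Fdft1 matches had control ratios from -0.14 to 0.25. The Lss matches had 0.29 to 0.52 in control pair 1, which is part of how they were chosen, since Lss itself stood at 0.58 there.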

How the data were processed

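Two-colour cDNA arrays of M-1 cells gave 10 channels in 5 pairs. Per the series' design text, slides were scanned on a ScanArray instrument and quantified in Imagene 4.0. The deposited table gives a mean intensity for each spot and channel, linear and not log-transformed, and from these the ratio and log2 values were computed. How the authors corrected background, normalised or chose the listed spots was not given in the sources used here. Channels were joined by array or control number, a match borne out by shared blanks (178 and 258 within control pairs, 3 across them).

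Control pairs were centred by lowess (statsmodels 0.14.6, span 0.2). Dexamethasone arrays were centred on the middle of the empty band, found in windows of 150 spots and smoothed with a span of 0.3. Spots of a clone were averaged. limma 3.58.1 (R 4.3.3) compared dexamethasone arrays with control pairs over the 8056 clones valued in both control pairs and on at least 1 dexamethasone array, with Benjamini-Hochberg adjustment. A second fit tested the control pairs against 0. The scripts were tested on simulated data.

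Members and lists were chosen with earlier results of these data known. Besides the members, pathway genes listed on at least 2 dexamethasone arrays (Ggps1, Npc2, Elovl6, Me1) and the 5 clones most like each member were named by rule; markers and pathway genes outside it are named to account for whole lists. Clones with several symbols (274) or without one (5460) were not named. The number of arrays limits the precision.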

Additional observations from a re-analysis of the deposited data

How the results depend on the processing

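The Fdft1 difference stayed above 0 in all 16 alternatives and the Lss difference in all 15. Both genes were chosen on these ratios and listed only higher, so the sign was nearly fixed in advance. Several settings could only return the main value by construction, so they add nothing to the counts of 16 and 15. For Fdft1 (0.62) these were clones valued in all 5 pairs, no or a random replicate block, no dim clones, and listed spots alone. For Lss (0.56) they were no or a random replicate block, no dim clones, and array 3 left out, where Lss has no value. The Fdft1 difference was 0.45 with median centring of the dexamethasone arrays and 0.82 with no centring of any pair, and 0.58 to 0.67 with each pair left out. For Lss it was 0.27 with median centring of the dexamethasone arrays, 0.25 with none there, 0.25 with median centring of all pairs, 0.29 with no centring of any pair, 0.47 with Cy5 alone, 0.34 at the listed spot alone, and 0.27 to 0.85 with each pair left out. Lss has no value among the 213 clones valued in all 5 pairs. The Fdft1 dye effect turned to -0.17 with median centring and -0.24 with none. The cause of these shifts was not tested.

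The limma count of 0 clones higher and 1 lower kept 0 higher except for 1 without dexamethasone replicate 1 or 3 (range 0 to 1). The lower count was 3 with median centring of all pairs, 0 with no replicate block, 2 when array pairs entered as a random replicate block, 0 with Cy5 alone, and 0 to 7 with each pair left out. The difference was 0.62 for Fdft1 and 0.56 for Lss, the same with the block as without it, which the construction of the channels fixes. Dye calls of 5 higher and 45 lower were 0 and 0 with median or no centring, 8 and 49 with 50 added, and 0 and 14 without the dimmest clones. Median centring and no centring of all pairs were chosen after seeing the data, and the other alternatives were planned. Leaving out dim clones cannot move a member's own difference. How signal over background limits either gene was not tested.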
